A study of Mus musculus with 6 samples.

Results

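Alpha cells are the glucagon-secreting cells of the pancreatic islet, and 8 genes of their hormone product and identity (Gcg, Ttr, Irx1, Irx2, Gria3, Dpp10, Loxl2 and Mamld1) were followed here, chosen by name as rows of the deposited table. All 8 were found, among 16547 genes, and all 8 were above 0 in every library and so were tested. The data came from whole islets of C57BL/6 mice aged 11 to 12 weeks, which were picked by hand after collagenase digestion and kept for 2 days in RPMI medium. Total RNA was sequenced in 3 libraries from bKO mice (genotype BetaKcnj11 -/-, with Kcnj11 deleted in beta cells) and 3 libraries from WT mice (genotype Kcnj11 fl/fl, so the control mice carried the floxed allele). Levels are given as FPKM, fragments scaled by the authors' service provider to transcript length and sequencing depth. No source used here names the transgene that drove the deletion. Whether each library stands for its own mouse is not stated, so a p-value covers only library-to-library spread, which may be technical.

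Glucagon raises blood glucose by acting on the liver and is cut from proglucagon, the product of Gcg, by the convertase PC2. In mature alpha cells the gene is held active by transcription factors such as Pax6 and Foxa2, and the Iroquois factors Irx1 and Irx2 mark alpha rather than beta cells. Alpha cells carry the same ATP-sensitive potassium channel as beta cells, and their secretion is also shaped by insulin, somatostatin, glutamate and amino acids.

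The promoters of 3 genes are shown: that of the hormone gene, and those of Irx2 and Dpp10, whose groups did not overlap either in FPKM or relative to Gcg. Each runs from 250 bases before to 50 bases after the start of the gene, 5′ to 3′ on the strand of the gene, from RefSeq on GRCm38.p6, a later build than the one the FPKM were made on. Capitals mark the letters TATAAA and the homeodomain core TAAT on either strand.
Gcg, chr2:62483604-62483903, minus strand: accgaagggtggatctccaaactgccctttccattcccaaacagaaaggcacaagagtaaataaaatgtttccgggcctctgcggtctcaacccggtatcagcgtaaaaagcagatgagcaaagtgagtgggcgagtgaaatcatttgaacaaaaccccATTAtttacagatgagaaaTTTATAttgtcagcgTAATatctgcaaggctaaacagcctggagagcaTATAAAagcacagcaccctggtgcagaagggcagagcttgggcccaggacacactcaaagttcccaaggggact
Irx2, chr13:72628570-72628869, plus strand: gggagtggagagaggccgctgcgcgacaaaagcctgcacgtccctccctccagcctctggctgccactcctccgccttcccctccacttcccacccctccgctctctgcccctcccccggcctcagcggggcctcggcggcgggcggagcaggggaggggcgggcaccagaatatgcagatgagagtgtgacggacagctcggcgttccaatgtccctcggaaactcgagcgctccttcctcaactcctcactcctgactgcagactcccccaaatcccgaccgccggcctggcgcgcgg
Dpp10, chr1:124045510-124045809, minus strand: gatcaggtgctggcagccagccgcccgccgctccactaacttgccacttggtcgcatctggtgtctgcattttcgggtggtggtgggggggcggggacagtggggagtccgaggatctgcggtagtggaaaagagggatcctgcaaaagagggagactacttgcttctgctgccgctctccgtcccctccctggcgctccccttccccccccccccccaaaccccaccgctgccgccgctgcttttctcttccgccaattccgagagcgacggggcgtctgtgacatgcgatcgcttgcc
The Gcg promoter holds TATAAA at positions -24 and -72 and TAAT at positions -57 and -91, each given as the first base of the match relative to the start of the gene. The Irx2 and Dpp10 promoters hold 0 matches to either. Of 32851 promoters of this length, 13.6% hold TATAAA and 58.0% hold TAAT. ACANNTGT, the site bound by Iroquois proteins of the fruit fly, contains the E-box letters CANNTG, is in 7.38% of promoters and is in 0 of these 3. A match or its lack describes only these letters.

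The libraries differed by more than genotype. Their estimated depth was about 26400000 to 41000000 fragments in bKO and 23500000 to 27700000 fragments in WT. Kcnj11, the deleted gene, was at 3.45, 5.31 and 3.51 FPKM in bKO replicates 1, 2 and 3 and at 19.7, 24.7 and 25.4 FPKM in WT replicates 1, 2 and 3 (log2 difference -2.35, SE 0.17, limma adjusted p = 0.0250). That call was lost, with limma adjusted p of 0.0764 to 0.228 and log2 differences of -2.29 to -2.26, when WT replicate 2 or 3 or bKO replicate 1 or 3 was left out, and under 2 other alternatives (0.0788 with the replicate number as a block, and 0.214 with the first and the third bKO library merged into 1). Replicates 1 and 3 of bKO were closer to each other than any other pair, with a root mean square log2 difference of 0.108 against 0.190 to 0.391. Markers of exocrine acinar cells summed to 10936 to 24587 FPKM in bKO, and to 1291 FPKM in WT replicate 1, 15709 in WT replicate 2 and 18669 in WT replicate 3. Some values below are therefore also given with that bKO pair averaged as 1 sample, or without single libraries.

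**Figure D1:**
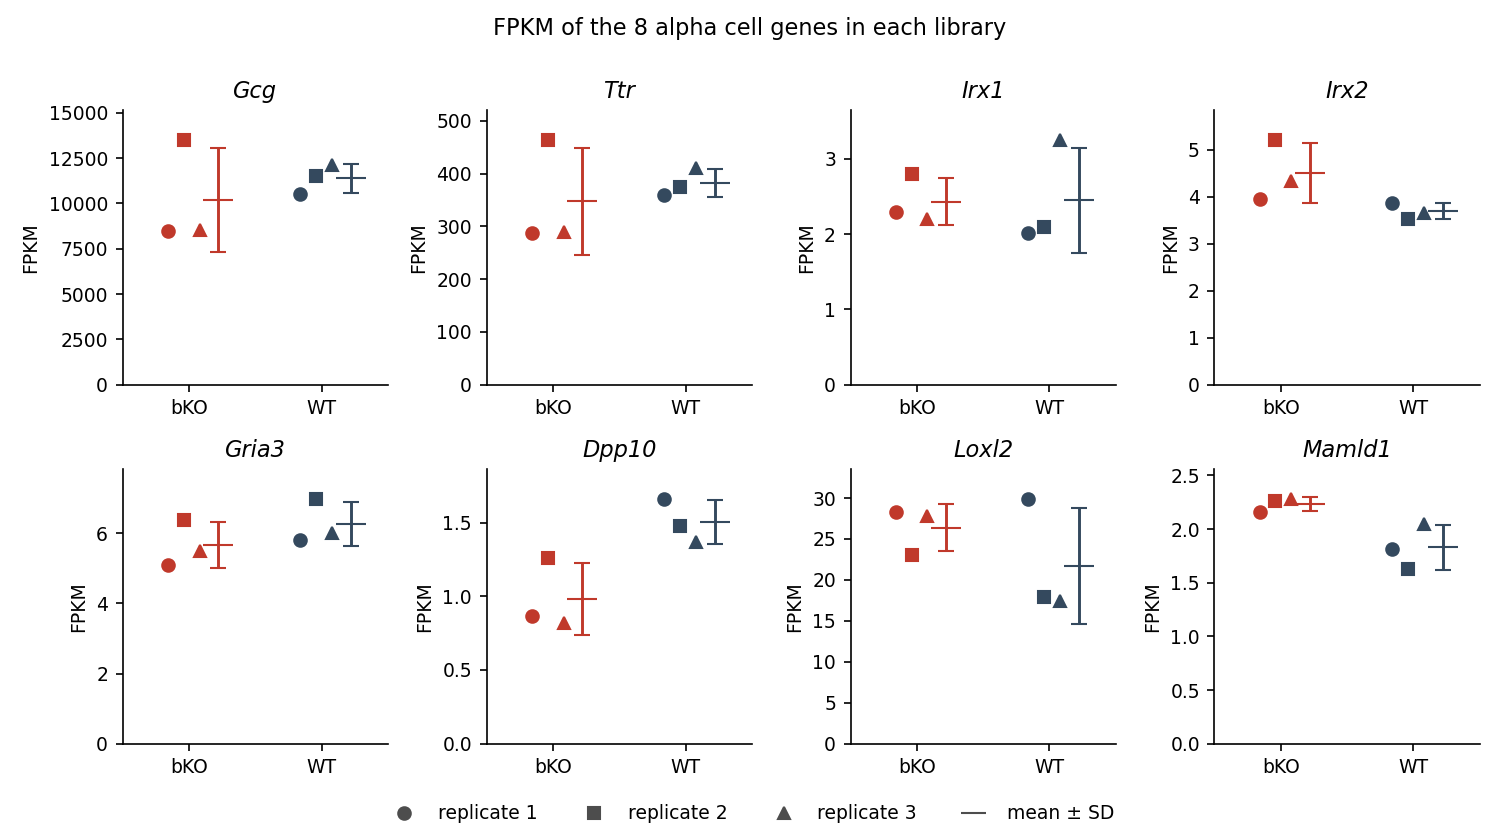
FPKM (vertical axes, linear, from 0) of the 8 alpha cell genes in each bKO and WT library, with 1 point per library, point shape for the replicate number, and the mean ± SD of 3 libraries beside the points. Gcg and Ttr show the same layout, with bKO replicate 2 highest and bKO replicates 1 and 3 lowest, while the groups separate for Irx2, Mamld1 and Dpp10.

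None of the 8 genes passed the test between bKO and WT islets. On the scale of log2(FPKM + 1) after quantile normalization, limma called 0 of 8, against 0.194% of all 15962 genes tested. At an unadjusted p below 0.05, 0 were higher and 1, Dpp10, was lower, where 5.05% of all genes were higher and 9.17% lower. By deposited FPKM, 2 genes (Irx2 and Mamld1) had every bKO library above every WT library, where 15.3% of all genes did. One gene, Dpp10, had every bKO library below every WT library, where 6.48% of all genes did. The median log2 difference of the 8 was -0.14, beside -0.0084 over all genes tested, and 3 of the 8 differences were positive.

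Gcg was the gene with the fourth highest mean level of the table. It was at 8490, 13521 and 8540 FPKM in bKO replicates 1, 2 and 3, and at 10523, 11494 and 12124 FPKM in WT replicates 1, 2 and 3. The groups overlapped, because bKO replicate 2 had the highest value of all 6 libraries while bKO replicates 1 and 3 had the lowest 2. The mean was 10184 ± 2890 FPKM in bKO and 11381 ± 807 FPKM in WT (SD, n = 3 each; exact permutation test, two-sided, p = 0.5, where 0.1 is the smallest possible; 0.6 after adjustment over the 5 tests on linear values). The difference of means, -1197 FPKM, moved with each bKO library. It was -2866 FPKM without bKO replicate 2, -350 without bKO replicate 1, -375 without bKO replicate 3, and -363 when bKO replicates 1 and 3 were averaged. In whole islets, fewer alpha cells and less RNA per alpha cell cannot be told apart.

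Gcg was also set against the other hormones within each library, which removes the scaling between libraries. Gcg amounted to 4.36%, 5.37% and 4.61% of the summed FPKM of Ins1 and Ins2 in bKO replicates 1, 2 and 3, and to 3.94%, 3.74% and 5.44% in WT replicates 1, 2 and 3. The ranges overlapped, and the highest share was in WT replicate 3 (exact permutation test, two-sided, p = 0.6; adjusted p = 0.6). Relative to Sst, the somatostatin gene of delta cells, Gcg was 2.30, 2.69 and 2.26 times as high in bKO replicates 1, 2 and 3 and 2.27, 2.09 and 2.54 times as high in WT replicates 1, 2 and 3 (exact permutation test, two-sided, p = 0.6; adjusted p = 0.6). The direction of the Sst comparison turned without bKO replicate 2, where bKO minus WT was -0.019 in place of 0.118.

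Ttr encodes transthyretin, a carrier of thyroid hormone and of retinol-binding protein that is made in liver, choroid plexus and alpha cells. It was at 288, 464 and 290.1 FPKM in bKO replicates 1, 2 and 3, and at 360, 375 and 411 FPKM in WT replicates 1, 2 and 3. As for Gcg, bKO replicate 2 was the highest library and bKO replicates 1 and 3 were the lowest. The mean was 347 ± 101 FPKM in bKO and 382 ± 26.3 FPKM in WT (SD, n = 3 each; exact permutation test, two-sided, p = 0.6; adjusted p = 0.6). The difference of -34.3 FPKM was -92.7 when bKO replicate 2 was left out and -5.09 when the other bKO libraries were averaged. Of 5 liver markers, Alb, the albumin gene, was at 0.23 to 0.35 FPKM in bKO and 0.48 to 0.82 FPKM in WT, and Apoa1 was at 0.10 to 0.15 FPKM in bKO and up to 0.11 FPKM in WT, where 1 library was listed at 0. The 5 markers summed to 29.7 to 35.9 FPKM in bKO and 35.9 to 106 FPKM in WT, nearly all of it Fgb, a fibrinogen chain, at 26.2 to 32.6 FPKM in bKO and 30.1 to 102 FPKM in WT.

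Ttr kept a near-constant ratio to Gcg from library to library. The ratio of Ttr to Gcg was 3.39%, 3.43% and 3.40% in bKO replicates 1, 2 and 3, and 3.42%, 3.26% and 3.39% in WT replicates 1, 2 and 3. The highest ratio was 1.05 times the lowest, whereas Gcg alone spanned 1.59 times and Ttr alone 1.61 times. The bKO mean was 3.41% ± 0.023 and the WT mean 3.36% ± 0.084 (SD, n = 3 each; exact permutation test, two-sided, p = 0.4; adjusted p = 0.6). Among 6466 genes with a mean FPKM of at least 10, Ttr was the one nearest to Gcg over the 6 libraries, by the root mean square difference of log2(FPKM + 1) centred on each gene without quantile normalization. That distance was 0.0245, and the next genes were Sfrp5, a secreted inhibitor of Wnt signalling, at 0.0909, and Fgl2, a fibrinogen-like protein, at 0.106. From Ttr, the nearest were Gcg, Sfrp5 at 0.0902 and Hist1h1c, a linker histone, at 0.0997. These distances describe 6 libraries, of which bKO replicates 1 and 3 were nearly alike.

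**Figure D2:**
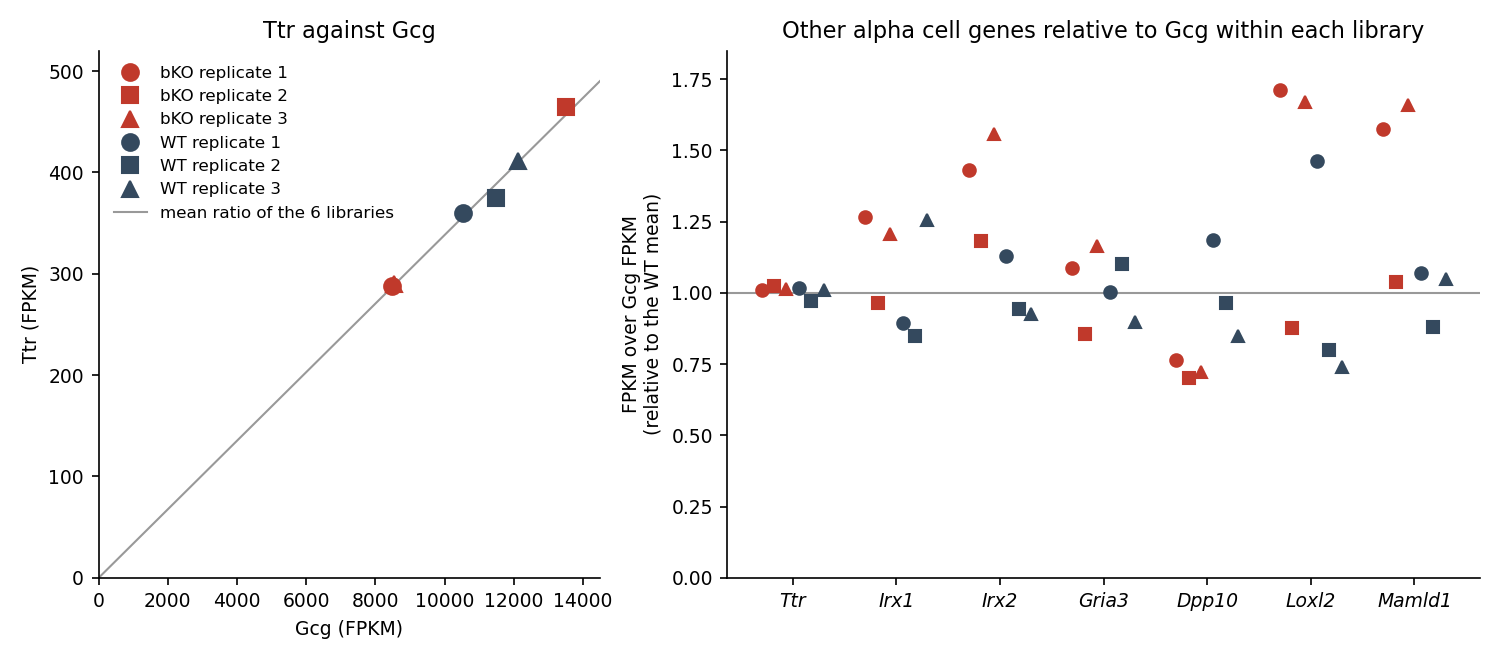
Left, Ttr against Gcg in FPKM for each bKO and WT library, on linear axes from 0, with a line through 0 at the mean ratio of the 6 libraries. Right, FPKM of the other 7 alpha cell genes over Gcg FPKM in the same library, divided by the WT mean of that ratio, with bKO in red and WT in dark blue; Ttr stays within 1.05 times over all 6 libraries, whereas bKO lies wholly above WT for Irx2 and wholly below it for Dpp10.

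Irx2, a homeobox transcription factor of alpha cells, was at 3.96, 5.22 and 4.34 FPKM in bKO replicates 1, 2 and 3 and at 3.87, 3.53 and 3.66 FPKM in WT replicates 1, 2 and 3. Every bKO library was above every WT library, although bKO replicate 1 exceeded WT replicate 1 only slightly. The means were 4.50 ± 0.64 FPKM in bKO and 3.69 ± 0.17 FPKM in WT (SD, n = 3 each), 1.22 times as high in bKO, with a log2 difference of 0.13 (95% interval -0.12 to 0.38, limma adjusted p = 0.587). Without quantile normalization that difference was 0.23 (limma adjusted p = 0.332), and without bKO replicate 2 it was 0.031 (limma adjusted p = 0.847).

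Irx1, the neighbouring Iroquois gene, was at 2.30, 2.79 and 2.21 FPKM in bKO replicates 1, 2 and 3, and at 2.01, 2.09 and 3.26 FPKM in WT replicates 1, 2 and 3. WT replicate 3 held the highest value and the other WT libraries the lowest, so the groups overlapped fully. The means were 2.43 ± 0.32 FPKM in bKO and 2.45 ± 0.70 FPKM in WT (SD, n = 3 each; log2 difference -0.087, 95% interval -0.47 to 0.30, limma adjusted p = 0.820). Its sign turned without quantile normalization (0.0060) and without WT replicate 3 (0.081). Irx1 rested on about 102 to 241 fragments per library, for which counting alone gives an error of up to 9.92%.

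Another 2 Iroquois genes were measured. Irx3 was at 1.03, 0.60 and 1.05 FPKM in bKO replicates 1, 2 and 3 and at 0.38, 0.33 and 0.54 FPKM in WT replicates 1, 2 and 3. Its groups did not overlap, and its log2 difference of 0.35 missed the threshold (limma adjusted p = 0.235). Irx5 was at 0.011 to 0.10 FPKM in bKO and 0.017 to 0.073 FPKM in WT. Among these 4 Iroquois genes, of 6 listed, Irx2 had the highest mean FPKM in each group and Irx1 the next. The other 2 were looked up by symbol and not found.

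Gria3 encodes an AMPA-type glutamate receptor subunit. It was at 5.10, 6.38 and 5.49 FPKM in bKO replicates 1, 2 and 3, and at 5.82, 6.99 and 6.01 FPKM in WT replicates 1, 2 and 3. The ranges overlapped, and the highest library of each group was its replicate 2. The means were 5.66 ± 0.65 FPKM in bKO and 6.27 ± 0.63 FPKM in WT (SD, n = 3 each; log2 difference -0.21, 95% interval -0.46 to 0.046, limma adjusted p = 0.430). That difference was -0.13 without WT replicate 2 and -0.13 without quantile normalization. Gria2, the subunit that limits calcium entry through these receptors, was at 2.27 to 2.68 FPKM in bKO and 1.96 to 2.61 FPKM in WT, below Gria3 in every library. FPKM of Gria3 and Mamld1 each stand for several transcripts in the table, so no fragment number was derived for them.

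Dpp10 had the smallest limma p of the 8 genes, and it missed the threshold. It encodes a peptidase-like membrane protein without enzyme activity that joins voltage-gated Kv4 potassium channels as an auxiliary subunit. It was at 0.87, 1.26 and 0.82 FPKM in bKO replicates 1, 2 and 3, and at 1.66, 1.48 and 1.37 FPKM in WT replicates 1, 2 and 3. Every bKO library was below every WT library, with bKO replicate 2 nearest to WT. The means were 0.98 ± 0.24 FPKM in bKO and 1.501 ± 0.15 FPKM in WT (SD, n = 3 each), 0.653 times as high in bKO, with a log2 difference of -0.42 (SE 0.11, 95% interval -0.68 to -0.17, limma adjusted p = 0.167). The adjusted p ranged from 0.0706 without bKO replicate 2 to 0.572 without bKO replicate 1 over its 15 alternatives. It rested on about 326 to 776 fragments per library, for which counting alone gives an error of up to 5.54%, against a coefficient of variation of 27.1% over the 6 libraries.

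No other gene of the dipeptidyl peptidase family had every bKO library below every WT library. Dpp6, the close relative of Dpp10 that also joins Kv4 channels, was at 2.42, 3.23 and 2.30 FPKM in bKO replicates 1, 2 and 3 and at 2.64, 2.04 and 1.88 FPKM in WT replicates 1, 2 and 3, with overlap. Dpp4, the enzyme that inactivates incretin hormones and is active in alpha cells, was at 7.81 to 9.75 FPKM in bKO and 9.12 to 13.4 FPKM in WT (log2 difference -0.50, limma adjusted p = 0.247). Fap, a serine protease of fibroblasts that human alpha cells also express, was at 1.17 to 1.35 FPKM in bKO and 0.66 to 0.99 FPKM in WT, without overlap (log2 difference 0.27, limma adjusted p = 0.167). Of the cytosolic peptidases, Dpp8 was at 25.2 to 27.1 FPKM in bKO and 24.1 to 26.7 FPKM in WT, and Dpp9 at 37.9 to 43.6 FPKM in bKO and 34.6 to 39.6 FPKM in WT. Of the 6 genes of the family, limma called 0; at an unadjusted p below 0.05, 1 (Fap) was higher and 2 (Dpp4 and Dpp10) were lower, beside 5.05% higher and 9.17% lower over all genes tested.

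Loxl2 encodes a secreted lysyl oxidase that cross-links collagen and elastin. It was at 28.3, 23.1 and 27.8 FPKM in bKO replicates 1, 2 and 3, and at 29.9, 17.9 and 17.4 FPKM in WT replicates 1, 2 and 3. WT replicate 1 was the highest library and lay with bKO replicates 1 and 3, while the other WT libraries were the lowest. The means were 26.4 ± 2.86 FPKM in bKO and 21.7 ± 7.08 FPKM in WT (SD, n = 3 each; log2 difference 0.25, 95% interval -0.27 to 0.76, limma adjusted p = 0.621). The difference moved with each WT library, to 0.50 on the log2 scale without WT replicate 1, 0.14 without WT replicate 2 and 0.10 without WT replicate 3.

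The other lysyl oxidases and the markers of stellate cells moved with Loxl2. Lox was at 25.8, 9.22 and 25.6 FPKM in bKO replicates 1, 2 and 3 and at 27.9, 7.42 and 8.15 FPKM in WT replicates 1, 2 and 3. Loxl3 was at 4.42, 2.43 and 4.20 FPKM in bKO replicates 1, 2 and 3 and at 4.84, 1.82 and 1.58 FPKM in WT replicates 1, 2 and 3. Loxl1 was at 15.02, 10.1 and 15.4 FPKM in bKO replicates 1, 2 and 3 and at 11.9, 6.55 and 8.05 FPKM in WT replicates 1, 2 and 3. All 8 stellate cell markers, collagens and Pdgfrb among them, summed to 481, 250.4 and 471 FPKM in bKO replicates 1, 2 and 3 and to 378, 151 and 148 FPKM in WT replicates 1, 2 and 3, and 0 of the 8 was listed at 0. The same 3 libraries, bKO replicates 1 and 3 and WT replicate 1, were the highest for Loxl2, Lox, Loxl3 and the stellate sum. The median of 5 Schwann cell markers, as log2(FPKM + 1) minus the WT mean, was also highest in these libraries. It was 0.22, 0.12 and 0.20 in bKO replicates 1, 2 and 3 and 0.43, -0.22 and -0.25 in WT replicates 1, 2 and 3. By their sum, bKO replicate 2 was above bKO replicate 1, at 12.5 and 12.2 FPKM. The part of stellate or Schwann cells in the Loxl2 level was not tested.

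Mamld1 encodes a nuclear protein with a mastermind-like domain that acts with Notch signalling factors. It was at 2.16, 2.26 and 2.28 FPKM in bKO replicates 1, 2 and 3, and at 1.82, 1.63 and 2.05 FPKM in WT replicates 1, 2 and 3. Every bKO library was above every WT library, and bKO was the tighter group. The means were 2.23 ± 0.068 FPKM in bKO and 1.83 ± 0.21 FPKM in WT (SD, n = 3 each), 1.22 times as high in bKO, with a log2 difference of 0.093 (95% interval -0.10 to 0.29, limma adjusted p = 0.620). Without quantile normalization the difference was 0.19 (limma adjusted p = 0.304), and it was 0.054 without WT replicate 2 and 0.16 without WT replicate 3. Maml1, a Notch coactivator, was likewise at 6.62 to 7.70 FPKM in bKO and 5.53 to 6.37 FPKM in WT without overlap, whereas Maml2, at 1.42 to 1.81 FPKM in bKO and 0.90 to 1.43 FPKM in WT, and Maml3, at 5.95 to 7.04 FPKM in bKO and 5.95 to 7.06 FPKM in WT, overlapped.

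In order of mean FPKM over the 6 libraries the genes ran Gcg (10782), Ttr (365), Loxl2 (24.1), Gria3 (5.97), Irx2 (4.10), Irx1 (2.44), Mamld1 (2.03) and Dpp10 (1.24). FPKM is per transcript length, so these levels can be set beside each other. Neighbours from Gria3 downward had ranges that touched, except Irx2 and Irx1, whose libraries ran from 3.53 to 5.22 and from 2.01 to 3.26 FPKM.

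The genes were then set relative to Gcg in each library, a comparison added after their levels were seen. Irx2 was at 0.466, 0.386 and 0.508 per 1000 Gcg FPKM in bKO replicates 1, 2 and 3 and at 0.368, 0.307 and 0.302 in WT replicates 1, 2 and 3. On this scale all bKO libraries were above all WT libraries, at 1.39 times the WT mean. The exact permutation test, two-sided, gave p = 0.1, the smallest possible, and 0.3 after adjustment over 6 genes. The Irx2 values are those given above, and Gcg, the divisor, was lowest in bKO replicates 1 and 3, which raises ratios there. The share of all genes without overlap on this scale was not computed. Dpp10 was at 0.102, 0.093 and 0.096 per 1000 Gcg FPKM in bKO replicates 1, 2 and 3 and at 0.158, 0.128 and 0.113 in WT replicates 1, 2 and 3, and the groups did not overlap (exact permutation test, two-sided, p = 0.1; adjusted p = 0.3). The 3 bKO libraries lay closer together for Dpp10 on this scale, at 0.0970 ± 0.0045 in bKO and 0.133 ± 0.023 in WT (SD, n = 3 each), than in FPKM. Irx1, Gria3, Loxl2 and Mamld1 overlapped between the groups relative to Gcg, with bKO means of 1.15, 1.04, 1.42 and 1.42 times the WT means (exact permutation tests, two-sided, p of 0.2 to 0.8; adjusted p of 0.36 to 0.8).

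Irx2 had other nearest genes than the hormone. By the same distance over the 6 libraries, the genes nearest to Irx2 were Kctd12, a subunit of GABA-B receptors, at 0.0354, Ttc22 at 0.0467 and Zfhx2, a zinc finger homeobox gene, at 0.0470. Gcg was the gene of rank 5701 and Ttr that of rank 5605 among 6467 ranked from Irx2, at 0.263 and 0.253. The added 1 dampens the deviations of Irx2 more than those of abundant genes, and this distance depends on their size. Irx1, Gria3, Mamld1 and Dpp10 were below the mean FPKM of 10 and were not ranked. Among the 8 genes, Mamld1 had the steadiest ratio to Irx2, with an SD of log2 ratios of 0.148, against 0.306 for Gcg.

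Other alpha cell genes were counted in 4 lists, and limma called 0 of the 36 tested. At an unadjusted p below 0.05, 3 of the 36 were higher and 6 lower, beside 5.05% and 9.17% of all genes tested. The lists comprised transcription factors, proglucagon processing, surface and secreted proteins, and receptors that control glucagon secretion. They were read in whole islets, so the levels are not of alpha cells alone, and the part of other cell types was not tested. Of the 36, 14 were highest in bKO replicate 2, as were 3 of the 8 genes above (Gcg, Ttr and Irx2) and 20.9% of all genes tested. Nearly as many, 13 of the 36, were highest in WT replicate 1, as were 2 of the 8 genes and 3371 of all 15962 genes tested. The median log2 difference of the 36 was -0.068.

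Of 11 transcription factors of alpha cells, limma called 0, beside 0.194% of all genes tested. At an unadjusted p below 0.05 there were 0, beside 5.05% higher and 9.17% lower over all genes, so a count of 0 is near that share. Their log2 differences ran from -0.23 to 0.30 with a median of -0.014. The 3 factors with the smallest p were Foxa2, at 41.8 ± 3.44 FPKM in bKO and 44.0 ± 0.69 FPKM in WT, Nkx2-2, at 39.7 ± 5.01 FPKM in bKO and 44.8 ± 5.21 FPKM in WT, and Pax6, at 90.9 ± 14.03 FPKM in bKO and 99.3 ± 3.62 FPKM in WT (SD, n = 3 each; limma adjusted p of 0.432 to 0.531).

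The 6 genes of proglucagon processing included 5 with lower values in bKO, and none passed the test. Limma called 0 of 6, with 3 lower at an unadjusted p below 0.05, beside 9.17% of all genes, and 5 had every bKO library below every WT library, beside the 6.48% of all genes that did. The median log2 difference was -0.42. Pcsk2, the convertase PC2 that releases glucagon, was at 408, 521 and 405 FPKM in bKO replicates 1, 2 and 3 and at 575, 657 and 569 FPKM in WT replicates 1, 2 and 3 (log2 difference -0.48, limma adjusted p = 0.248). Pcsk1, the convertase of proinsulin, was at 109, 156 and 110 FPKM in bKO replicates 1, 2 and 3 and at 191, 221 and 217 FPKM in WT replicates 1, 2 and 3 (log2 difference -0.77, limma adjusted p = 0.1004), and it alone of the 36 genes passed when bKO replicate 2 was left out (limma adjusted p = 0.0405, with 0.0405 to 0.427 over its 15 alternatives). Pam, which amidates peptides, had a log2 difference of -0.37 (limma adjusted p = 0.171). Pcsk1n, an inhibitor of PC1, overlapped between the groups, at 426 to 477 FPKM in bKO and 332 to 498 FPKM in WT. Beta cells hold these enzymes too, and Ins1 was at 19574 to 22443 FPKM in bKO and 26849 to 37115 FPKM in WT; the part of each cell type in these levels was not tested.

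Among 10 surface and secreted proteins and 9 receptors, limma called 0, beside 0.194% of all genes tested. At an unadjusted p below 0.05, 2 of the 10 were higher and 2 lower, and 1 of the 9 was higher and 1 lower. Over all genes tested, 5.05% were higher and 9.17% lower. Gc, the vitamin D binding protein that marks alpha cells, was at 80.7, 106 and 80.9 FPKM in bKO replicates 1, 2 and 3 and at 103, 96.3 and 89.7 FPKM in WT replicates 1, 2 and 3. Plce1, a phospholipase C, was at 0.68 to 0.79 FPKM in bKO and 0.45 to 0.64 FPKM in WT without overlap (log2 difference 0.14, limma adjusted p = 0.286). Gcgr, the glucagon receptor, was at 3.52, 6.35 and 3.85 FPKM in bKO replicates 1, 2 and 3 and at 7.94, 7.09 and 5.62 FPKM in WT replicates 1, 2 and 3, with overlap (log2 difference -0.62, limma adjusted p = 0.271). Epha4, an ephrin receptor that restrains glucagon release in mice, was at 0.20 to 0.30 FPKM in bKO and 0.091 to 0.15 FPKM in WT without overlap (log2 difference 0.14, limma adjusted p = 0.250). Avpr1b, a vasopressin receptor, was at 1.19 to 2.11 FPKM in bKO and 1.75 to 1.80 FPKM in WT (log2 difference -0.23, limma adjusted p = 0.498; -0.13 without bKO replicate 1 and -0.40 without bKO replicate 2).

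**Figure D3:**
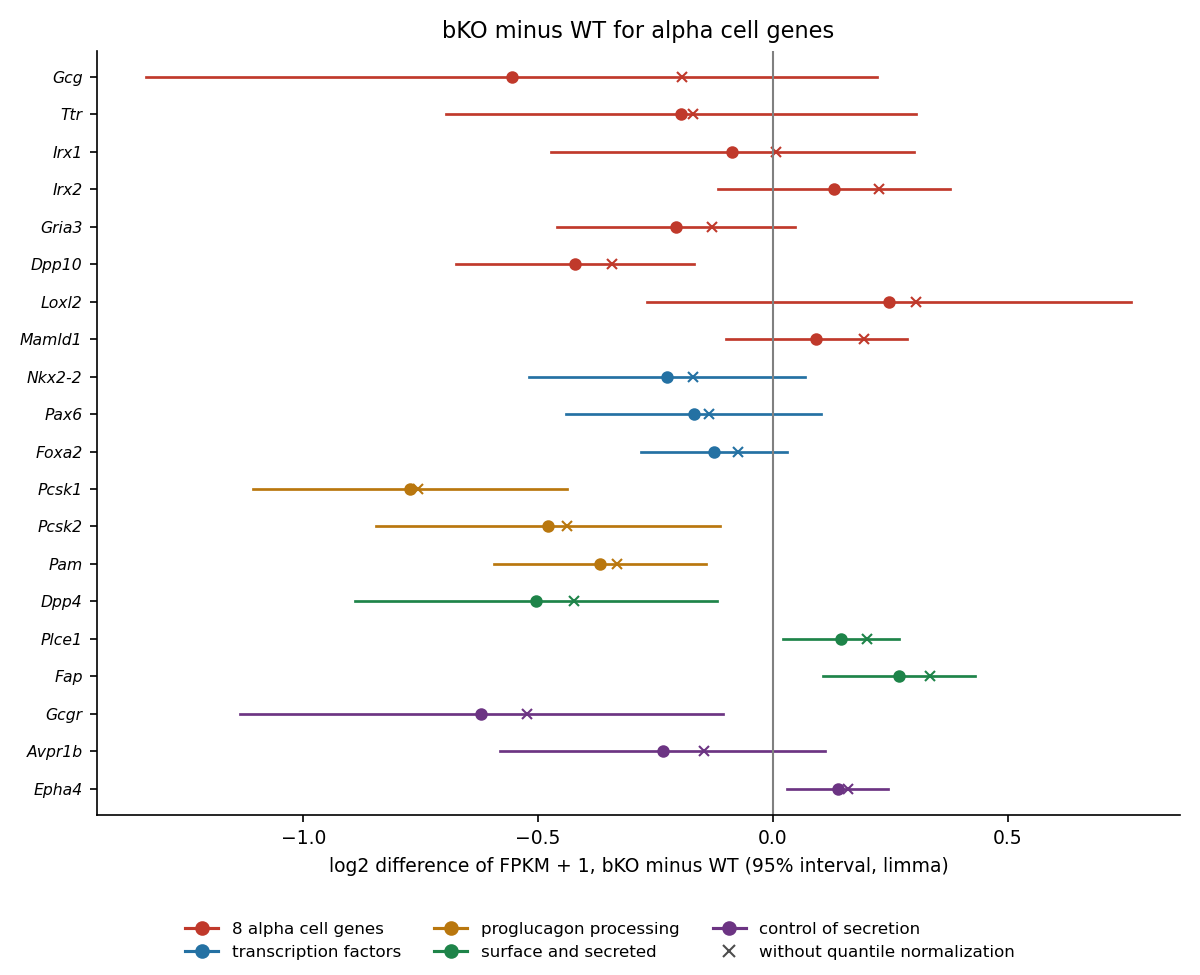
Log2 differences of FPKM + 1 (horizontal axis, bKO minus WT, quantile normalized) with 95% intervals from limma for the 8 alpha cell genes and 12 other alpha cell genes, the 3 with the smallest p in each of 4 lists; crosses give the difference without quantile normalization. The interval of Dpp10 stays below 0 among the 8 genes, and Gcg has the widest interval and the largest shift, with -0.56 after and -0.19 before quantile normalization.

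Among genes of the glucagon peptide family, Vip, a neuropeptide, was at 36.7, 40.9 and 35.4 FPKM in bKO replicates 1, 2 and 3 and at 26.2, 20.8 and 25.6 FPKM in WT replicates 1, 2 and 3. Its groups did not overlap, and it missed the threshold (log2 difference 0.56, limma adjusted p = 0.0968). Adcyap1, the PACAP gene, was at 0.66 to 0.99 FPKM in bKO and 0.37 to 0.64 FPKM in WT (log2 difference 0.22, limma adjusted p = 0.339). Sct, the secretin gene, was at 0.091 to 0.14 FPKM in bKO and at most 0.28 FPKM in WT, where 1 library was listed at 0. Rbp4, the retinol carrier that transthyretin binds and that delta cells express, was at 60.2, 81.3 and 57.7 FPKM in bKO replicates 1, 2 and 3 and at 73.8, 103 and 92.5 FPKM in WT replicates 1, 2 and 3 (log2 difference -0.47, limma adjusted p = 0.265). Of the receptors of thyroid hormone, Thra was at 8.16 to 9.52 FPKM in bKO and 6.60 to 9.06 FPKM in WT, and Thrb was at 2.25 to 2.53 FPKM in bKO and 2.21 to 2.41 FPKM in WT. The transporter Slc16a10 was at 20.7 to 25.7 FPKM in bKO and 22.5 to 27.4 FPKM in WT. Stra6, a retinol-binding protein receptor, was at 0.15 to 0.70 FPKM in bKO and 0.029 to 0.55 FPKM in WT.

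**Figure D4:**
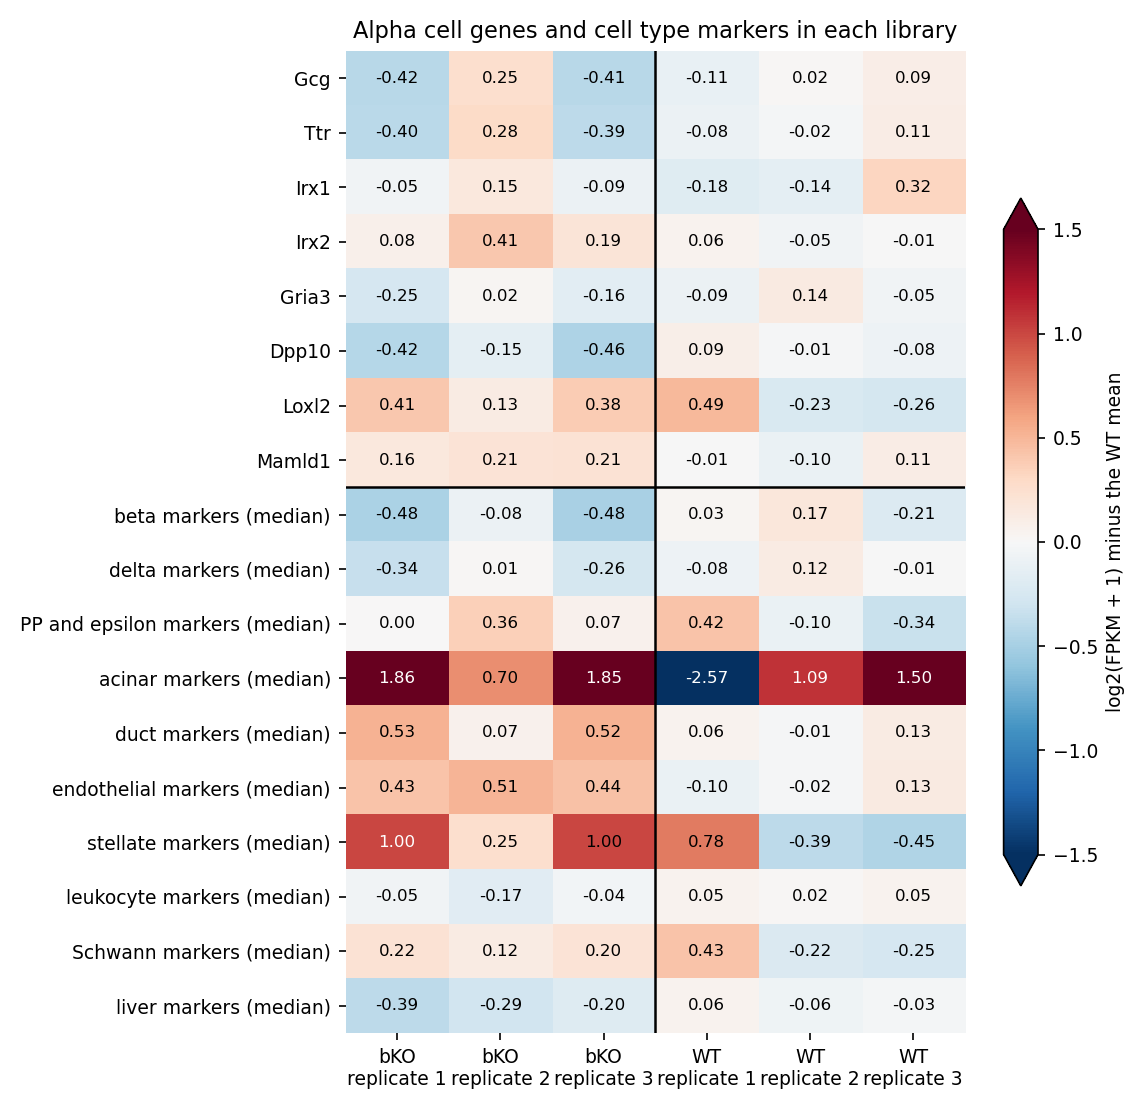
Log2(FPKM + 1) minus the WT mean for the 8 alpha cell genes (top) and the median of the same over marker genes of other cell types (bottom), in each bKO and WT library; red is above and blue below the WT mean, and colours end at 1.5. Gcg and Ttr are low in bKO replicates 1 and 3, where acinar and stellate medians are high and beta medians low. Among the WT libraries, WT replicate 1 is lowest in Gcg, Ttr and the acinar median, and WT replicate 3 is highest in all of these. Loxl2 follows the stellate and Schwann rows.

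The libraries in which Gcg and Ttr were low, bKO replicates 1 and 3, were also those in which the median of the beta cell markers was lowest. These medians of log2(FPKM + 1) minus the mean of WT were -0.48 and -0.48, against -0.08 in bKO replicate 2 and -0.21 to 0.17 in WT. Of the 9 beta markers, 7 were lowest in bKO replicate 1 or 3, beside 25.0% of all genes tested. Acinar medians in these 2 libraries were 1.865 and 1.852, against 0.70 in bKO replicate 2 and -2.57 to 1.499 in WT, and 0 of the 10 acinar markers was listed at 0. Among the WT libraries this order differed. WT replicate 1, the lowest of WT in Gcg and Ttr, had the acinar median of -2.57. WT replicate 3, the highest of WT in both, had the acinar median of 1.499 and the beta median of -0.21. Stellate medians kept the bKO direction, at 0.78 in WT replicate 1 and -0.45 in WT replicate 3. All 7 endothelial markers had every bKO library above every WT library, beside 15.3% of all genes tested. Their medians were 0.43 to 0.51 in bKO and -0.10 to 0.13 in WT, and limma called 0 of the 7 (lowest limma adjusted p = 0.0968). The part of these other cells in the levels of Gcg and Ttr was not tested. With FPKM rescaled to the total without Ins1, Ins2 and Iapp, the Gcg difference was -2269 FPKM (exact permutation test, two-sided, p = 0.4).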

How the data were processed

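Islet RNA of 3 bKO and 3 WT libraries was measured as FPKM, which the authors had made by a service provider with Cufflinks on trimmed, mapped reads, per the labels and design text. Per the submitters' processing notes, mm9 was used; no source names an aligner. Logs, quantile normalization and a filter on 0 are mentioned in the design text, but the deposited FPKM are linear and 585 genes are at 0 in a library. Of 2 rows without a gene, 1 was blank and 1 held the column medians; both were left out.

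Genes at 0 in any library were removed, and 15962 were transformed to log2(FPKM + 1), which understates changes of low genes, and quantile normalized. limma 3.58.1 in R 4.3.3 (eBayes with trend, two-sided) compared bKO with WT, with Benjamini-Hochberg adjustment over all genes and a threshold of 0.05. On simulated data for this comparison, over 15962 genes, it recovered 62% of 1.5-fold and 88% of 2-fold changes. The changed genes were drawn above a mean level that Irx1, Mamld1 and Dpp10 do not reach. Noise was drawn independently for each library, so the likeness of the closest bKO pair was not simulated. These rates may therefore not hold for the genes followed here. Quantile normalization fixes the most abundant genes, so Gcg, Ttr and their ratios were compared as deposited FPKM by exact permutation. Depth was estimated from steps of low FPKM in single-transcript genes, with GENCODE M21 transcript lengths less a fitted correction of 220 to 270 bases; 64.4% to 68.0% of values fell within 0.1 of a whole fragment, too few for a count test. Errors of counting cover counting only.

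Named were the 8 genes, Kcnj11, families of the 8 (some genes are not reported here), and in each list of other alpha cell genes the 3 with the smallest p; Gc, Pcsk1n, Alb, Apoa1, Fgb and Pyy were added after their values were seen. For the nearest genes, 3 each were taken. The genes and lists were chosen with earlier results of these data known. Groups came from the sample titles. Alternatives were a pseudocount of 0.1, other scalings, filters and eBayes without trend, a replicate block, each library left out, and bKO replicates 1 and 3 averaged. Python 3.11.15, numpy 2.4.6, pandas 2.3.3 and matplotlib 3.10.9 were used.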

Additional observations from a re-analysis of the deposited data

How the results depend on the processing

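The count of 0 of the 8 alpha cell genes called in limma was unchanged in all 15 alternatives run, with 1 to 4 of them at an unadjusted p below 0.05. Over all genes the count of 31 called was 0 with the replicate block (2343 at an unadjusted p below 0.05), 0 with bKO replicates 1 and 3 averaged (1233 at an unadjusted p below 0.05), and 0 to 57 with each library left out in turn; 57 came without WT replicate 1, and 0 without bKO replicate 1 or 3. The split of 10 higher and 21 lower was 19 and 20 without quantile normalization and 5 and 23 after rescaling without Ins1, Ins2 and Iapp. The 36 other alpha cell genes gave 0 to 1 calls with a library left out, the 1 being Pcsk1 without bKO replicate 2. Whether replicate numbers pair the libraries is not stated. The correlations of deviations from the group mean were -0.18, 0.083 and 0.29 for numbers 1, 2 and 3. For bKO replicate 1 with WT replicate 3 the correlation was also 0.29. Deviations within a group sum to 0, and bKO replicates 1 and 3 were nearly alike, so these correlations cannot decide about pairing. The replicate block changed no call of a named gene other than Kcnj11. The Irx1 log2 difference turned to 0.0060 without quantile normalization and ran from -0.20 to 0.081 with a library left out. The difference in Gcg over Sst ran from -0.019 to 0.239 with a library left out. Gria3 per 1000 Gcg FPKM turned to -0.0054 with bKO replicates 1 and 3 averaged and ran from -0.0158 to 0.0697 with a library left out. The log2 differences of the other 7 genes kept their sign in all 15 alternatives. Quantile normalization moved the Gcg log2 difference, which was -0.56 with it and -0.19 without it, since it assigns one set of values to the highest ranks of all libraries. The cause of the other changes was not tested. With 3 libraries a group, the exact tests could not go below 0.1.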

Other observations

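The hormone genes of PP cells followed the order of Gcg among the bKO libraries and not among the WT libraries. Ppy, the pancreatic polypeptide gene, was at 8804, 10473 and 8918 FPKM in bKO replicates 1, 2 and 3 and at 11024, 7620 and 6451 FPKM in WT replicates 1, 2 and 3. Pyy, the peptide YY gene, was at 3563, 4157 and 3733 FPKM in bKO replicates 1, 2 and 3 and at 4772, 3135 and 3005 FPKM in WT replicates 1, 2 and 3. In bKO, Gcg, Ppy and Pyy were all lowest in replicate 1 and highest in replicate 2. Sst had the same order, at 3693, 5022 and 3772 FPKM in bKO replicates 1, 2 and 3, so it was not particular to PP cell genes. Replicates 1 and 3 of bKO were nearly alike, so this order mainly sets bKO replicate 2 apart. Ppy and Pyy were highest in WT replicate 1 and lowest in WT replicate 3, whereas Gcg was lowest of the WT libraries in WT replicate 1 and highest in WT replicate 3.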
